A study of Mus musculus with 3 samples.

Results

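The genes described here are 9 components of the Notch pathway and the proneural program that it restrains. They were chosen by name as the rows of the count tables for 3 receptors (*Notch1*, *Notch2* and *Notch3*), 2 ligands (*Dll1* and *Jag1*), 3 transcriptional targets (*Hes1*, *Hes5* and *Hey1*) and 1 proneural factor (*Neurog2*), 9 of 24062 gene symbols in all. All 9 had counts in both libraries and none was lost to a filter. A further list of 63 pathway genes, grouped by role, is given after them.

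In Notch signaling, a ligand of the Delta or Jagged family on one cell binds a Notch receptor on its neighbor. The receptor is then cut, first by ADAM proteases and then by γ-secretase, and its freed intracellular domain joins RBPJ and Mastermind in the nucleus to activate genes of the HES and HEY families. These targets encode repressors of proneural genes such as *Neurog2*, and in the neuroepithelium of the closing neural tube they are known for holding cells as progenitors rather than neurons.

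RNA-Seq was carried out on rostrums, the front of the head, from mouse embryos at E9 with 18 to 22 somites. The *tuft* embryos were homozygous for the *tuft* allele, a nonsense mutation of *Tet1* that arose spontaneously in the 3H1 colony, and had neural tube defects, and the wild-type embryos were of the 3H1 Balb background strain, which both groups shared. RNA of 3 embryos was pooled for each sample. For each genotype 1 column of counts was analyzed and is treated as 1 library. No value below therefore has a replicate error, and no p-value is given. With 2 *tuft* samples on record and 1 column of *tuft* counts, the column could stand for either sample or for both. Since *tuft* embryos were selected for an open neural tube, genotype and malformation cannot be told apart.

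The *tuft* library held 6433067 counts on genes and the wild-type library 14251942, which is 2.22 times as many, and 11795 and 16914 genes had a count. A count of 0 therefore allows a level of up to 0.466 CPM in *tuft* and 0.210 CPM in wild type, where CPM are counts for every 1000000 counts on genes, and this covers counting error only. Counts were scaled by the trimmed mean of M-values (TMM), and each fold change is *tuft* over wild type on that scale with a 95% interval that covers counting error only. A gene is called higher or lower at a fold change of at least 2 or at most 0.5 whose interval does not reach 1. This rule set 32.6% of the 17140 genes with a count lower and 17.4% higher, so that a call on its own was common. *Tet1* itself was at 0.214 of its wild-type level (0.145 to 0.307) on 32 *tuft* and 435 wild-type counts. Whether the nonsense mutation lowers its RNA was not tested. Reads came from whole tissue, where fewer cells of a type and less RNA per cell cannot be told apart.

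Of the 9 genes, *Notch2* and *Hey1* were lower in *tuft*, *Hes1* and *Hes5* were higher, and the other 5 were not called, which is 22.2% in each direction. Among the 10419 genes with a mean of at least 5 normalized CPM, where the members other than *Neurog2* lie, 28.9% were lower and 25.8% higher. The share of members called was thus near or below that of these 10419 genes in both directions. Over all genes with a count, 32.6% were lower and 17.4% higher. The log2 fold changes of the members ran from -2.28 for *Hey1* to 1.87 for *Hes5*, around a median of -0.30 and with an SD across genes of 1.43. This spread was no wider than that of the 10091 genes at this level with counts in both libraries, which had an SD of 1.99 and ran from -3.70 at percentile 5 to 2.81 at percentile 95. The median over all genes with a count was -0.52, and it was -0.04 over the genes at 5 normalized CPM or more.

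The promoter sequences of the member with the highest fold change (*Hes5*), the receptor with the lowest (*Notch2*) and the ligand nearest to a call (*Dll1*) are printed here to show which motifs of the pathway's own factors they hold. Each is the 250 bases before a transcript start in RefSeq for GRCm38.p6, the mm10 build of the counts, read 5′ to 3′ on the strand of the gene. Capitals mark every match, on either strand, to TGGGAA (the core bound by RBPJ), CACNAG (the N-box, bound by HES proteins) or CAGNTG (the E-box, bound by proneural and other bHLH factors).
Hes5 (chr4:154960673-154960922, plus strand): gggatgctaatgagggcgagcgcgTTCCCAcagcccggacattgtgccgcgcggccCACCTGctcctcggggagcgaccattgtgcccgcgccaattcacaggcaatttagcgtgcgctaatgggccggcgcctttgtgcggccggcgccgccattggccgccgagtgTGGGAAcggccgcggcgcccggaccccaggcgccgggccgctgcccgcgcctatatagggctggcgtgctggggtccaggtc
Notch2 (chr3:98013288-98013537, plus strand): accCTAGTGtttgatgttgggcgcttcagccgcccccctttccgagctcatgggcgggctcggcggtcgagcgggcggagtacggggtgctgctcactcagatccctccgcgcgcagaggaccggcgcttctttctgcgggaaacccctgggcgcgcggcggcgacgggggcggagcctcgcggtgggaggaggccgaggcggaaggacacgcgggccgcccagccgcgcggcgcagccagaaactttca
Dll1 (chr17:15376933-15377182, minus strand): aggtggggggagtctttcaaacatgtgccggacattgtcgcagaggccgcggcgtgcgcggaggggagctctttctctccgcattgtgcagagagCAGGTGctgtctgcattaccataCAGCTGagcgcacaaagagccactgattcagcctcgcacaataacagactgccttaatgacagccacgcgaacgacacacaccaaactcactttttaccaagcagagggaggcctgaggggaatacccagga

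The *Hes5* sequence held TGGGAA on the plus strand at bases 82 to 77 before the start and its reverse complement TTCCCA at 226 to 221, with an E-box between them. This window lies inside the span that RefSeq gives for the gene, which begins further upstream at 154960626. The *Notch2* sequence held no RBPJ core and no E-box in these letters, and 1 N-box near its far end. The *Dll1* sequence held 2 E-boxes, of which CAGCTG reads the same on both strands and is marked once. RefSeq sequences were found for 7 of the 9 members, in 8 windows because *Dll1* has a second start, and not for *Hes1* and *Hey1*. Among the 8 windows, 1 held the RBPJ core, 3 the N-box and 3 the E-box, against 21.6%, 36.7% and 44.8% of all 32851 windows of that length. Such matches are frequent, and they describe letters and not sites that were shown to be bound.

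The receptors differed from each other. *Notch2*, a broadly expressed receptor on chromosome 3 from 98013538 to 98150367 of GRCm38, had 2124 wild-type counts against 154 in *tuft*, which is 130.0 against 27.4 normalized CPM. It was 4.74-fold lower in *tuft* (4.02 to 5.62 by counting error), a log2 fold change of -2.24. Of the 3850 genes whose mean normalized level lay within 2-fold of its own, 5.9% were as low or lower, the smallest such share among the 9 genes. *Notch2* is thus the member that stood furthest out among genes of its own level.

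*Notch1*, the receptor with the best known part in neural progenitors, lies on chromosome 2 from 26457902 to 26503822. Its 400 *tuft* and 1433 wild-type counts are 71.3 and 87.7 normalized CPM, and the fold change was 0.813 (0.726 to 0.909). *Notch3*, on chromosome 17 from 32120820 to 32166896, had 969 and 3092 counts, or 173 and 189 normalized CPM, and a fold change of 0.913 (0.848 to 0.981). Both intervals lie below 1, but genes of their level reached such values often, in 37.3% of 3835 genes for *Notch1* and 36.5% of 2138 for *Notch3*. *Notch1* overlaps 0610009E02Rik and *Mir6996*, *Notch2* overlaps *Gm40103*, and *Notch3* overlaps *Gm38585* and *Gm41568*. Of these only *Mir6996* has a row in the count tables, and whether the counting used strand is not given in the sources used here, so that reads of an overlapping gene cannot be told apart.

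Within a library, the makeup of the receptor counts does not depend on normalization. *Notch2* gave 31.9% of the counts of the 3 receptors in wild type (30.8 to 33.1%, exact binomial interval) and 10.1% in *tuft* (8.64 to 11.7%). The share of *Notch3* was 46.5% in wild type and 63.6% in *tuft*, and that of *Notch1* was 21.6% and 26.3%. Such shifts were frequent in these libraries, where 68.3% of all pairs of the 10091 genes changed their ratio by 2-fold or more. The ratio of *Notch1* to *Notch2* counts went from 0.675 in wild type to 2.60 in *tuft*, a 3.85-fold difference (3.15 to 4.72). *Notch1* to *Notch3* differed by a factor of 0.891 only, with an interval from 0.778 to 1.02 that includes 1.

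The ligands moved in opposite directions, neither far enough for a call. *Dll1*, the Delta ligand of early neurogenesis and of the somites, lies on chromosome 17 from 15367354 to 15376932. With 156 *tuft* counts against 868 it stood at 27.8 and 53.1 normalized CPM, and its fold change of 0.523 (0.438 to 0.621) lay just short of 0.5. *Jag1*, a ligand of the other family, is on chromosome 2 from 137081451 to 137116520. On 402 and 740 counts it stood at 71.6 and 45.3 normalized CPM, with a fold change of 1.58 (1.40 to 1.79). Of the genes of like level, 27.2% were as low as *Dll1* or lower, and 33.0% were as high as *Jag1* or higher.

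Set against each other, the ligands showed a larger contrast. There were 1.17 *Dll1* counts for each *Jag1* count in wild type and 0.388 in *tuft*, a ratio of 0.331 (0.267 to 0.410). Their summed normalized CPM was nearly the same, 99.4 in *tuft* and 98.4 in wild type.

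*Hes1* and *Hes5*, the main HES repressors of the neuroepithelium, were both higher in *tuft*. *Hes5*, on chromosome 4 from 154960626 to 154962372, had 415 *tuft* counts and 331 wild-type counts, more in the smaller library. This is 74.0 against 20.3 normalized CPM and a fold change of 3.65 (3.15 to 4.23). *Hes1*, on chromosome 16 from 30065357 to 30067796, had 505 and 626 counts, or 90.0 and 38.3 normalized CPM, and a fold change of 2.35 (2.09 to 2.65). Among genes of like level, 9.38% were as high as *Hes5* or higher and 19.4% as high as *Hes1*.

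*Hey1*, a HEY repressor known from vessels, heart and somites as well as from the neural tube, went the other way. It lies on chromosome 3 from 8663359 to 8667038, overlaps LOC115489673, and had 21 *tuft* counts against 297. At 3.74 against 18.2 normalized CPM it was 4.86-fold lower in *tuft* (3.12 to 7.96), with the lowest fold change of the 9 genes. In its range of levels, however, 45% of 3196 genes were lower in *tuft*, 29.3% were as low as *Hey1*, and 8.39% had no count in *tuft*. A fall of this size was therefore common at its level, unlike that of *Notch2*.

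The targets of one pathway thus divided, and this holds without any normalization. *Hey1* gave 23.7% of the counts of the 3 targets in wild type (21.4 to 26.1%) and 2.23% in *tuft* (1.39 to 3.39%), while *Hes5* gave 26.4% and 44.1%. There were 1.11 *Hes5* counts for each *Hey1* count in wild type and 19.8 in *tuft*, a 17.7-fold difference (11.1 to 29.7). *Hes1* to *Hey1* differed 11.4-fold (7.18 to 19.0), from 2.11 to 24.0. Between the HES genes themselves, the ratio of *Hes1* to *Hes5* was 1.89 in wild type and 1.22 in *tuft*, a ratio of 0.643 (0.532 to 0.778).

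*Neurog2*, a proneural factor that drives progenitors towards neurons, was barely detected in either library. It is on chromosome 3 from 127632733 to 127635636 and had 5 *tuft* counts against 24, or 0.891 and 1.47 normalized CPM. Its fold change of 0.607 has an interval from 0.181 to 1.62, so that a difference in either direction was not detectable at this depth. In its range of levels 68.7% of 1641 genes had no count in *tuft* at all.

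**Figure D1:**
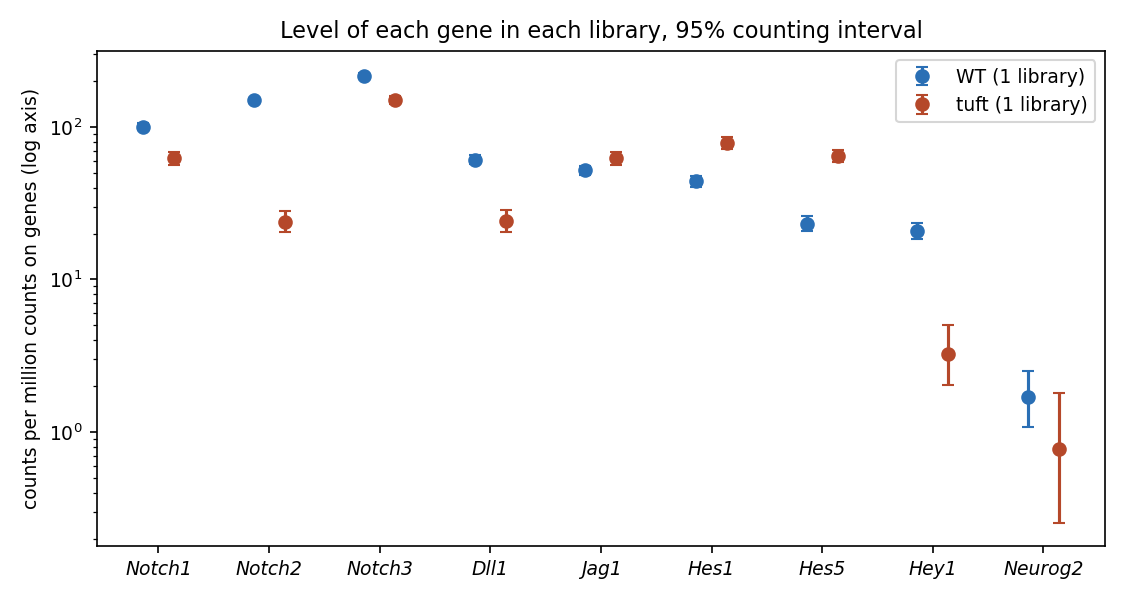
Level of each of the 9 genes in the wild-type library (blue) and the *tuft* library (red), in CPM on a log axis, before TMM scaling. Bars are 95% Clopper-Pearson intervals for counting error. *Notch2* stands at 149 CPM in wild type and 23.9 in *tuft*, and *Hes5* at 23.2 and 64.5.

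**Figure D2:**
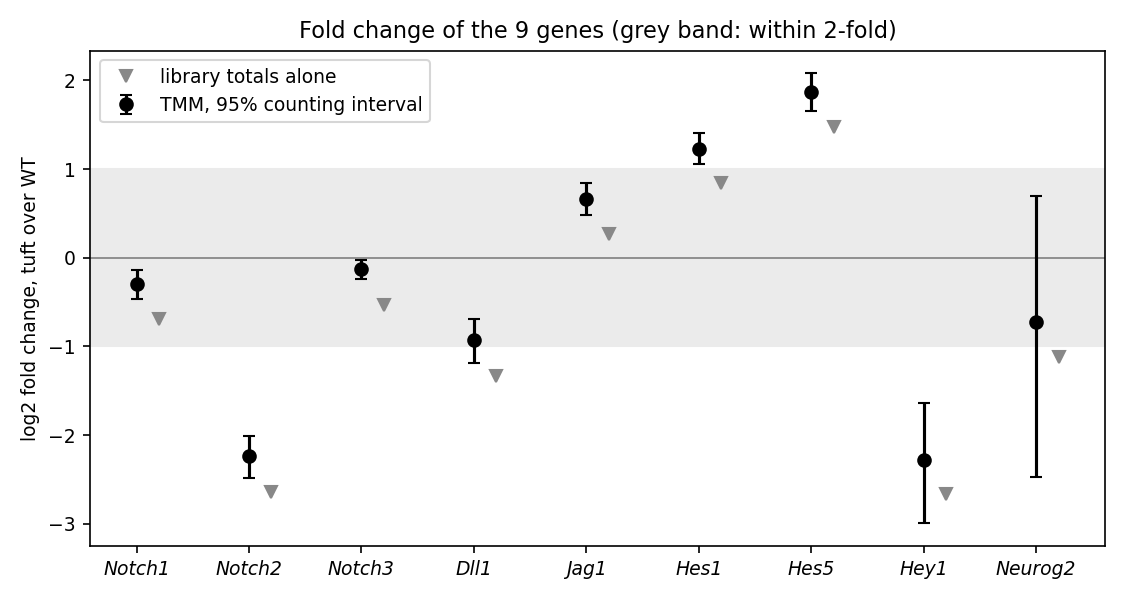
Log2 fold change (*tuft* over wild type) of the 9 genes after TMM scaling (black, with 95% counting intervals) and by library totals alone (grey triangles). The grey band marks changes within 2-fold. Totals alone shift all genes by -0.39, which brings *Hes1* to 0.84 and *Dll1* to -1.33.

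**Figure D3:**
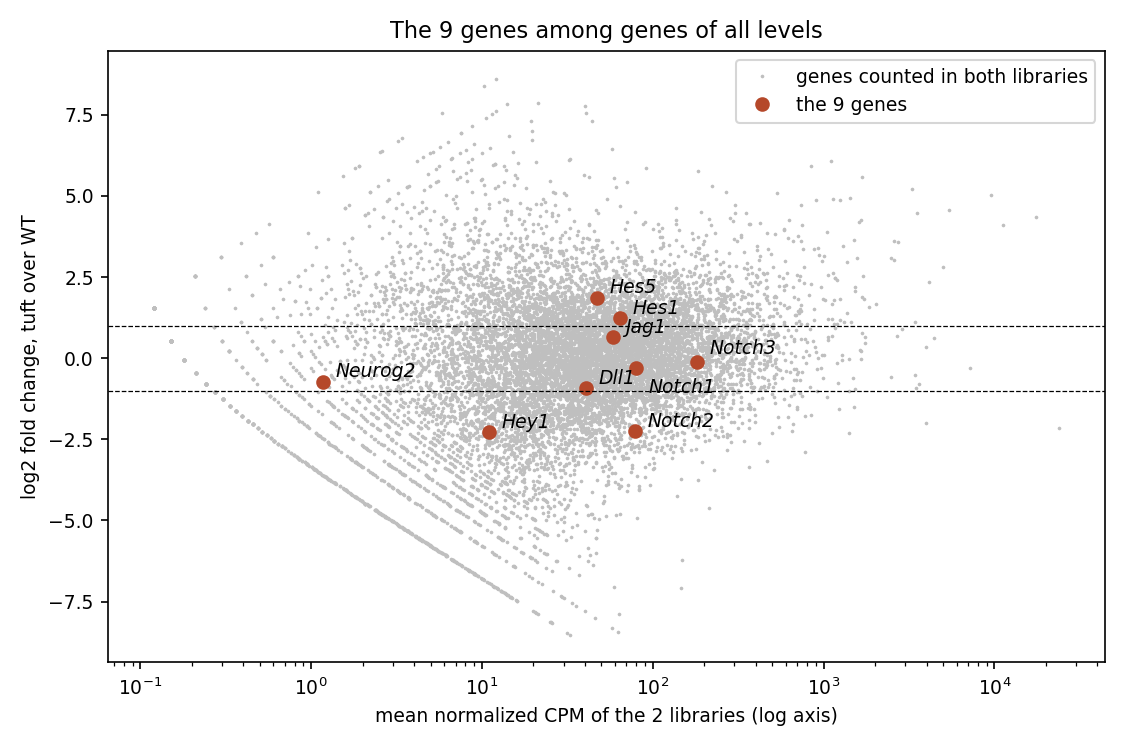
Log2 fold change (*tuft* over wild type) against the mean normalized CPM of both libraries (log axis) for genes counted in both libraries (grey) and the 9 genes (red). Dashed lines mark 2-fold. *Notch2* and *Hes5* lie towards the edges of the cloud at their level, and *Hey1* lies where the cloud itself spreads downwards.

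Levels of different genes were compared per kilobase of exon within each library, before TMM scaling. In wild type the order was *Notch3* with 27.0 CPM per kilobase, *Hes1* with 21.6, *Hes5* with 17.0, *Dll1* with 14.4, *Notch2* with 14.2, *Hey1* with 9.46, *Jag1* with 8.91, *Notch1* with 7.06 and *Neurog2* with 0.757. The neighbors *Hes5* and *Dll1*, *Dll1* and *Notch2*, and *Hey1* and *Jag1* had overlapping counting intervals in this order, and the other neighbors did not. The receptor *Notch3* led, and the Delta ligand stood level with *Notch2*.

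In *tuft* the HES targets headed the order, with 47.3 CPM per kilobase for *Hes5* and 38.5 for *Hes1*. They were followed by *Notch3* with 18.7, *Jag1* with 10.7, *Dll1* with 5.75, *Notch1* with 4.37, *Notch2* with 2.28, *Hey1* with 1.48 and *Neurog2* with 0.349. Only *Notch2* and *Hey1* had overlapping intervals among neighbors there. *Hes5* moved from place 3 to place 1, *Jag1* from 7 to 4 and *Notch2* from 5 to 7. These places rest on union exon lengths, which understate a gene whose transcripts are shorter than the union.

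Over all 36 pairs of the 9 genes, the ratio of counts differed between the libraries beyond counting error in 28 pairs, and by at least 2-fold as well in 22. By size alone, 25 of the 36 (69.4%) changed by 2-fold or more, about the share of all pairs of genes (68.3%), so the number of changed ratios is not particular to these genes. These comparisons need no library totals and share genes with each other, so they are not independent. The genes fell into an order with *Hey1* and *Notch2* at one end and *Hes1* and *Hes5* at the other. *Notch2* to *Hey1* stood at 7.33 in *tuft* and 7.15 in wild type, a ratio of 1.03. Its interval from 0.635 to 1.73 includes 1 and allows a change in either direction. The ratio of *Notch2* to *Hes5* was 17.3-fold lower in *tuft* (13.8 to 21.6) and that of *Dll1* to *Hes5* 6.98-fold lower (5.55 to 8.78). *Hes5* to *Neurog2* was 6.02-fold higher (2.21 to 20.4), on 5 and 24 *Neurog2* counts.

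**Figure D4:**
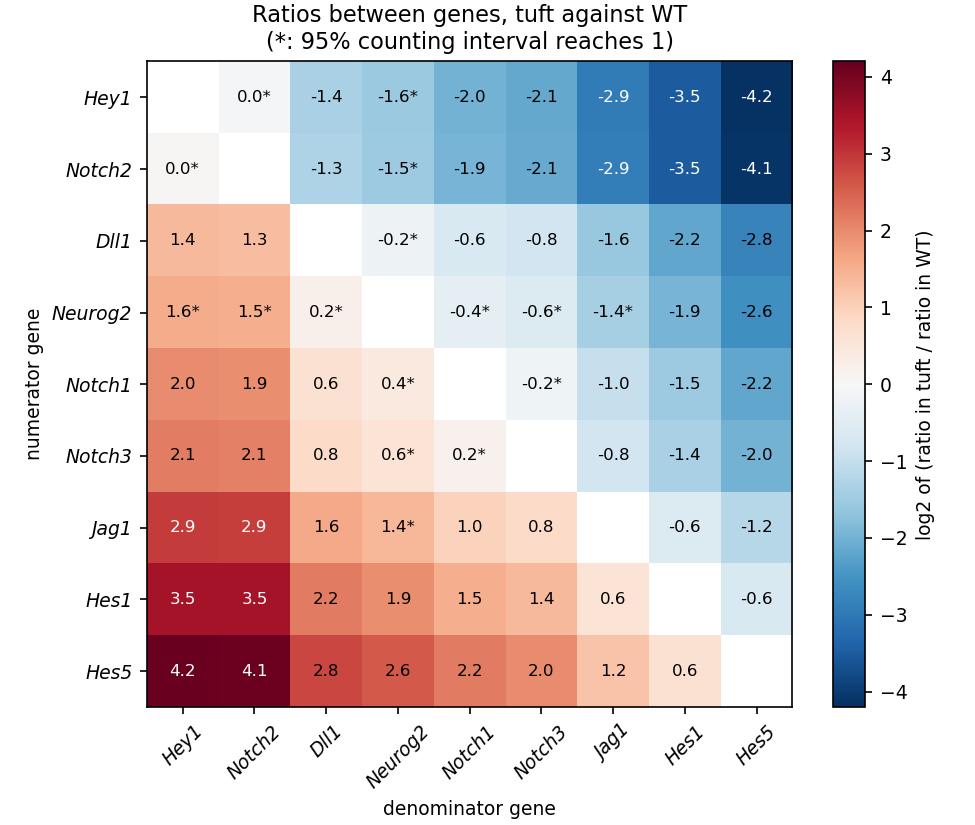
Log2 of the ratio of 2 genes' counts in *tuft* over the same ratio in wild type, for each pair of the 9 genes, with the numerator gene in rows and the denominator gene in columns. Red is a higher and blue a lower ratio in *tuft*, and a star marks the 8 pairs whose 95% counting interval reaches 1. The ratio of *Hes5* to *Hey1* is higher in *tuft* by 4.15 on the log2 scale, and that of *Notch2* to *Hes5* fell by 4.11.

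Of the 63 other pathway genes, 62 had a count, and 19 of them were lower (30.6%), 11 higher (17.7%) and 32 neither, close to the 32.6% and 17.4% of all genes. Their median log2 fold change was -0.41, and it was -0.31 once counts of 3 or fewer were set to a floor of 3, against -0.52 and -0.25 over all genes. The list as a whole did not stand apart in these counts. In *tuft* 12 of the 62 (19.4%) had no count, against 31.2% of all genes. Up to 4 genes of each role, chosen among those with the most counts, are given here, and no difference between roles, which hold 6 to 13 counted genes, was tested.

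Of the 7 other receptors and ligands, 6 were lower (85.7%) and none higher, against 32.6% and 17.4% of all genes. However, 6 of the 7 had 3 counts or fewer in a library, where depth limits how exactly the size of a fold change is known. With such counts set to 3, 5 of the lower genes were still past 2-fold. *Dlk1*, a noncanonical ligand and an imprinted gene, had 3690 wild-type counts against 505 in *tuft* and a fold change of 0.399 (0.362 to 0.437). *Notch4* and *Dll4*, a receptor and a ligand best known from endothelium, had 2 and 237 counts and 0 and 169 counts. The ratio for *Notch4* was 0.0246 (0.00296 to 0.0898). *Dll4* was at least 19.3-fold lower at a floor of 3 counts in the *tuft* library, and *Jag2*, a Jagged ligand, with 0 and 154 counts, at least 17.6-fold lower. Of the genes with wild-type counts within 2-fold of those of *Dll4* and *Jag2*, 16.2% and 18.3% also had no count in *tuft*. *Dner*, another of the 6 lower genes and picked after its values were seen, had 0 and 13 counts, and at the floor it was only at least 1.49-fold lower.

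The Fringe and fucosyl transferases modify the receptor and set which ligand it answers to. *Lfng*, a Fringe gene and itself a Notch target in several tissues, was higher in *tuft* with 515 and 701 counts, a fold change of 2.14 (1.91 to 2.40). *Pofut1*, which adds the fucose that Fringe extends, stood at 1.41 (1.29 to 1.54) and was not called. *Poglut1*, a glucosyltransferase, and *Mfng* were at 0.597 and 0.702, also within 2-fold. Of the 6 genes of this role, 2 were lower (33.3%), 1 higher (16.7%) and 3 neither, near the shares of all genes. At 5 normalized CPM or more, 28.9% of genes were lower and 25.8% higher.

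The cleavage enzymes included 4 of the 11 genes that were higher. *Ncstn*, a subunit of γ-secretase, had 1224 *tuft* counts against 1243 and a fold change of 2.87 (2.65 to 3.11). *Adam10*, the main protease of the first cut, had 533 counts in each library and a fold change of 2.91 (2.58 to 3.29). *Furin*, which trims the receptor on its way to the surface, was at 0.763 (0.644 to 0.901) and not called. Picked after its value was seen, *Adam17*, the related protease, had 8 and 747 counts and was 32.1-fold lower (16.2 to 74.5). In all, 2 of the 10 cleavage genes were lower (20%), 4 higher (40%) and 4 neither. All genes with a count gave 32.6% lower and 17.4% higher, and genes at 5 normalized CPM or more 28.9% and 25.8%.

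Among 12 genes of ligand and receptor trafficking, 5 were lower (41.7%), none higher and 7 neither. This compares with 32.6% lower and 17.4% higher of all genes, and 28.9% and 25.8% at 5 normalized CPM or more. *Mib1*, the ubiquitin ligase that ligands need to be taken up and to signal, had 1035 wild-type counts against 25 and was 14.2-fold lower (9.58 to 22.1). The Deltex genes *Dtx4* and *Dtx3* stood at 1.28 (1.19 to 1.39) and 1.22 (1.11 to 1.33), and *Itch*, another ubiquitin ligase, at 0.710 (0.594 to 0.845). None of these last 3 was called.

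Of the 13 genes of the nuclear complex, 3 were lower (23.1%), 1 higher (7.69%) and 9 neither. The shares were 32.6% lower and 17.4% higher over all genes, and 28.9% and 25.8% at 5 normalized CPM or more. The corepressor genes *Tle3* and *Spen* were at 1.55 (1.46 to 1.64) and 1.28 (1.20 to 1.37), and *Snw1*, a cofactor of transcription and splicing, at 1.37 (1.27 to 1.47). *Rbpj* and *Tle2*, which the naming rule did not choose, were looked up after the values were seen. *Rbpj*, the DNA-binding center of the complex, had 19 and 144 counts and a fold change of 0.384 (0.225 to 0.622), while *Tle2*, a Groucho corepressor, had 187 and 29 counts and was 18.8-fold higher (12.7 to 28.8).

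Among the 7 other HES, HEY and target genes, 3 were higher (42.9%), 1 lower (14.3%) and 3 neither, against 17.4% of all genes higher and 32.6% lower. Of the 7, 3 had 3 counts or fewer in a library. *Nrarp*, a target that feeds back on Notch, had 423 *tuft* counts against 469 and a fold change of 2.63 (2.30 to 3.00). *Hes3*, a HES gene of the early neuroepithelium, had 74 and 25 counts and was 8.62-fold higher (5.41 to 14.2). *Hey2*, a close relative of *Hey1*, was 2.33-fold higher (1.42 to 3.80) on 32 and 40 counts, in the direction opposite to *Hey1*. *Hes6*, which acts against *Hes1*, stood at 1.54 (1.30 to 1.81). The 1 lower gene was *Heyl*, the remaining HEY gene and likewise picked after its values were seen, with 0 and 71 counts, at least 8.13-fold lower, and 36.9% of genes with like wild-type counts also had none in *tuft*.

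Of the 8 other proneural factors, 7 had a count, 2 of them were higher (28.6%) and none was lower, against 17.4% and 32.6% of all genes. Of the 7, 5 had 3 counts or fewer in a library. *Nhlh2*, a bHLH gene of young neurons, had 59 *tuft* counts and 3 wild-type counts, a ratio of 57.3 (18.7 to 286). *Neurog1*, the closest relative of *Neurog2*, had 14 and 29 counts and a fold change of 1.41 whose interval from 0.686 to 2.75 includes 1. *Nhlh1* had 3 and 23 counts, with an interval from 0.0730 to 1.26.

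**Figure D5:**
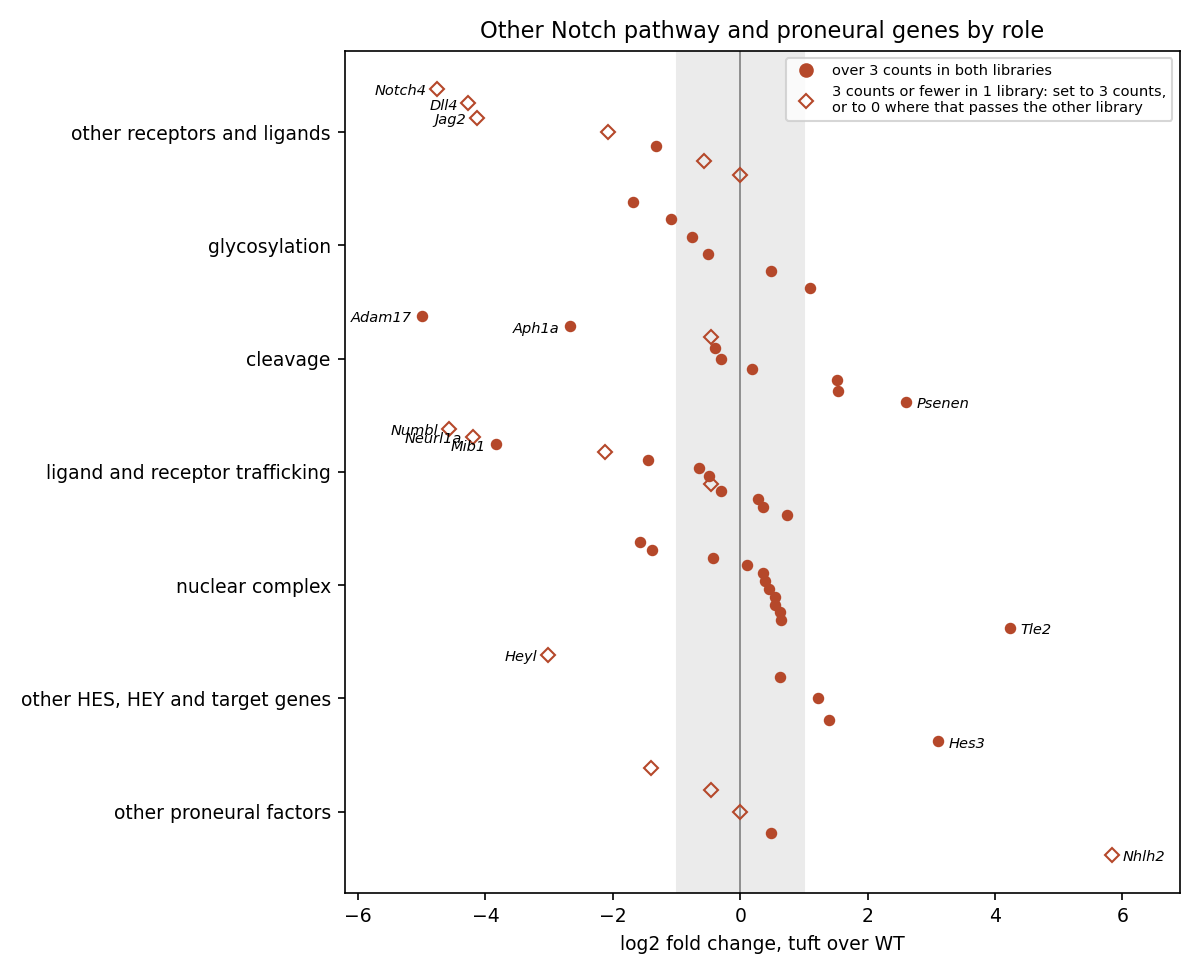
Log2 fold change (*tuft* over wild type) of 56 of the 59 other pathway genes with over 3 counts in at least 1 library, by role, with 1 point per gene and the grey band marking changes within 2-fold. The remaining 3 are not reported here one by one. Filled points had over 3 counts in both libraries. Open points had 3 or fewer in 1 library, which was set to 3, and stand at 0 where that floor passed the level of the other library. Among the points shown, receptors, ligands and trafficking genes outside the band lie on the lower side, and target and proneural genes outside it lie mostly on the higher side.

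Markers of the cell types that use the pathway were measured in the same libraries. Of all genes with a count 32.6% were lower and 17.4% higher, and of those at 5 normalized CPM or more 28.9% and 25.8%. Of 10 neural progenitor markers, 3 were higher (30%) and none lower, with summed normalized CPM of 1430 in *tuft* and 952 in wild type. The share of them that was higher was near the 25.8% of genes at 5 normalized CPM or more. None of these markers was at 0 in either library. Among 7 markers of early neurons, 2 were higher (28.6%) and 2 lower (28.6%), with sums of 135 and 109. Their part in the higher *Hes1* and *Hes5* values was not tested.

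Endothelium is a place of *Notch4*, *Dll4*, *Heyl* and *Hey1* expression, genes named here after they were found lower in *tuft*. Other pathway genes were not sorted by tissue. Some of them were not lower, such as *Hey2* (2.33-fold higher) and *Jag1* (fold change 1.58). Of 9 endothelial markers, 5 were lower (55.6%) and 1 higher (11.1%) in *tuft*, with summed normalized CPM of 210 and 362. Of 3 markers picked after their values were seen, *Pecam1* had 0 and 443 counts, at least 50.7-fold lower, whereas *Cdh5* had 161 and 1376 counts and *Emcn* was 4.22-fold higher. The part of endothelium in the lower values of these Notch genes was not tested. Presomitic and somite markers, of a tissue that also uses *Dll1* and *Hey1*, summed to 0.535 normalized CPM in *tuft* and 2.51 in wild type, and 3 of the 8, *Msgn1*, *Mesp2* and *Ripply2*, were at 0 in both libraries.

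Of 8 markers of head mesenchyme and neural crest, 2 were higher (25%) and 2 lower (25%), with sums of 587 and 270 normalized CPM. *Sox10* (11.1-fold) and *Twist1* (3.14-fold) were the higher ones, *Pdgfra* was at 0.283 and *Prrx2* had 0 and 301 counts, and over the 8 the log2 fold changes had a median of only 0.37. Of 9 yolk sac markers 7 were lower (77.8%) and 1 higher (11.1%), with sums of 325 and 1846. Of 5 erythroid markers with a count, 3 were higher (60%) and 1 lower (20%), with sums of 40728 and 2784. The sums were carried by *Hbb-y* (32.4-fold) and *Hba-x* (17.1-fold), while *Hbb-bh1* was at 1.08 and *Alas2* was 4.64-fold lower. Within several of these tissues, markers thus went in both directions, and the part of the tissues in the values above was not tested.

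Other rules changed the calls of 5 members, *Dll1*, *Jag1*, *Hes1*, *Hes5* and *Hey1*. By library totals alone, *Dll1* joined the lower genes and *Hes1* was no longer called, with 39.5% of all genes lower and 12.9% higher. At a fold of 1.5, *Dll1* joined the lower and *Jag1* the higher genes (37.6% and 23.1% of all genes). At a fold of 4, *Notch2* and *Hey1* remained lower and no member was higher (24.1% and 7.62%). NOISeq-sim, the method named by the study, rates a gene against noise from libraries drawn from the same counts, and it was re-implemented here, so that its calls need not be those of the program itself, with a threshold on P_NOI of 0.95. The re-implementation set *Notch2* and *Hey1* lower and *Hes5* higher, with 19.6% of all genes lower and 12.9% higher, and *Hes1* missed the threshold at 0.946. On its CPM scale, where 9.71% and 9.22% of genes passed, *Notch2* and *Hes5* remained, and *Hey1* stood at 0.931. *Notch1*, *Notch3* and *Neurog2* were called under none of these rules, and *Notch2* was lower under each of them.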

How the data were processed

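RNA of the rostrum of E9 embryos was given as 2 columns of counts, treated here as 1 library for *tuft* and 1 for wild type. Each sample was pooled from 3 embryos, and the *tuft* column could stand for either of the 2 *tuft* samples or for both. The values deposited by the authors are raw counts for each gene symbol, made from poly-A-selected, single-end Ion Proton reads aligned to mm10. The submitters' processing notes name Bowtie2 2.2.5, TopHat2 2.0.14, SAMtools 0.1.18 and HTSeq, and the version, overlap mode and strand setting of HTSeq are not given in the sources used here. Columns were mapped to genotypes by the names of the tables. The 5 summary lines of the counting were left out of totals. Alignments that were not unique made up 59.2% of the *tuft* entries and 51.4% of the wild-type ones, 12.8% and 10.8% lay on no gene, and 27.4% and 37.3% were counts on genes.

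TMM factors came from edgeR 4.0.16 in R 4.3.3 (30% of log ratios and 5% of levels trimmed at each end, factor of *tuft* relative to wild type 0.761). Folds, exact 95% Clopper-Pearson intervals and conditional odds ratios between genes were computed in Python 3.11.15 with scipy 1.17.1, numpy 2.4.6 and pandas 2.3.3. Counts of 0 were replaced by 0.5. With 1 column of counts per genotype there is no residual spread, so no test was run. The fold rule departs from NOISeq-sim, the method of the study, which takes its noise from the counts themselves and was kept as an alternative. Its re-implementation (5 libraries at 0.2 of the counts, variation 0.02) was revised once after its first counts of calls were seen, in its handling of ties, zeros and rounding, and the calls of the members were the same before and after. Other alternatives changed the normalization, the filter, the replacement of 0 and the fold.

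Exon lengths were unions of exons from the GENCODE annotation of NCBIM37. Positions and promoter sequences came from RefSeq on GRCm38.p6. Of the list of 63 genes, the 4 with the most counts in each role were named, together with genes said to be picked after their values were seen. Some of the genes that this rule names are not reported here one by one, and the counts of each role include them. The members, the gene lists and the rule were chosen with earlier results of these data known. Intervals and floors cover counting error only, and removal of PCR copies is not given in the sources used here.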

Additional observations from a re-analysis of the deposited data

How the results depend on the processing

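No paired analysis was possible because there was 1 column of counts per genotype. Median-of-ratios factors, the upper quartile, scaling without *Rn45s*, globin and yolk sac genes, a minimum of 10 counts and the replacement of 0 by 1 changed no call of a member. Library totals alone moved the median of the 9 genes from -0.30 to -0.69 and that of all genes from -0.52 to -0.92, which is the shift of -0.39 that this scaling gives each gene, and left 1 member higher. A fold of 4 left 0 members higher (17.4% of all genes were higher at a fold of 2 and 7.62% at 4), and 12 genes of the list of 63 lower and 5 higher in place of 19 and 11. NOISeq-sim set 1 member higher on its mean scale. On the CPM scale it set 1 member lower and 1 higher, and 5 genes of the list lower and 6 higher. It called 3366 genes lower and 2215 higher on the mean scale and 1665 and 1581 on the CPM scale, and the cause was not tested. Depth limits genes as low as *Neurog2*, and no alternative supplies the missing replicate error.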
